A study of Homo sapiens with 6 samples.

Results

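The genes described here are 29 enzymes and regulators of cholesterol and fatty acid synthesis. They were chosen by name, with earlier results of these data known. For each, the array probe set that carried that 1 gene symbol and had the highest mean over the 6 arrays was taken. This gave values for 27 of the 29 genes, out of 18417 genes measured in the same way. FDFT1 (squalene synthase) was not analysed here, and HSD17B7 (a sterol ketoreductase) lay on a probe set shared between several symbols and was left out.

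Affymetrix expression arrays were hybridised with total RNA of the established human embryonic stem cell line WA09, in 3 groups of 2 arrays. The undifferentiated cells (hESC) were kept in StemPro defined medium. Nascent mesoderm positive for the transcription factor ISL1 (INM) and smooth muscle cells (SMC) were made from them in that medium with BMP4 at 50 ng/ml and Wnt3a at 25 ng/ml, over 4 days for INM and 21 days for SMC. All 3 groups thus share 1 line and 1 base medium, the age of the undifferentiated cultures is not given, and the added factors and the time in culture cannot be told apart. The labels do not say whether the 2 arrays of a group stem from separate cultures, so the p-values speak of the spread between these arrays alone, and that spread may be technical. The series is about nucleosome positioning during differentiation, and the arrays give the expression side of that question.

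Cells build cholesterol from acetyl-CoA. Acetyl-CoA units are joined to HMG-CoA and reduced to mevalonate, mevalonate is phosphorylated and decarboxylated to isoprene units, and these are joined to squalene, which is closed to lanosterol and trimmed to cholesterol. Fatty acids are built from the same acetyl-CoA by carboxylation, chain extension, elongation and desaturation. Both branches are under the SREBP transcription factors, which stay in the endoplasmic reticulum with the escort protein SCAP while sterols are plentiful, held there by INSIG proteins, and are released for cleavage in the Golgi when sterols fall. Dividing cells need both products for membranes, and smooth muscle is rich in the cholesterol-dependent membrane pits called caveolae.

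The labels were checked against marker genes. SOX2, a factor of pluripotent cells, read 11.44 and 11.47 on the log2 scale in hESC and between 5.61 and 5.81 on the other 4 arrays. ISL1 read 9.46 and 9.55 in INM, 5.54 and 5.28 in hESC and 6.41 and 6.31 in SMC. ACTA2, smooth muscle actin, read 13.09 and 13.03 in SMC, 11.97 and 10.85 in INM and 6.44 and 6.41 in hESC. Of 9 smooth muscle markers, 8 were higher in SMC than in hESC, while MYH11, the mature smooth muscle myosin, was not called. The array medians over all probe sets lay between 6.46 and 6.68, and the 27 genes ranged from 6.92 to 12.39. The INM arrays differed more from each other than the other pairs did: the pooled SD over all genes was 0.313 for INM, 0.149 for hESC and 0.132 for SMC. For bulk RNA, fewer cells of a type and less RNA per cell cannot be told apart.

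Changes in the 27 genes were modest, and no uniform direction was seen. A gene is called changed here when its p from limma, adjusted by the Benjamini-Hochberg method over all 18417 genes, was under 0.05. From hESC to INM, 5 genes rose (MVK, MVD, STARD4, ACLY and SC5D), 3 fell (SCAP, AACS and PMVK) and 19 did not pass the test. That is 29.6% of the members called, where 33.8% of all genes tested were called, 18.9% as higher and 14.8% as lower. From hESC to SMC, 5 rose (MVK, STARD4, INSIG1, MVD and DHCR7) and 2 fell (EBP and AACS), which is 25.9% against 37.2% of all genes (19.7% higher and 17.6% lower). From INM to SMC, DHCR7 rose and SC5D fell, which is 7.41% against 21% of all genes (9.94% higher and 11.1% lower). In this fit the share of members called was below that of all genes in each comparison. With 27 members these shares rest on few calls, and their difference from all genes was not tested. That order was not kept in every fit: with SMC and hESC fitted alone, 9 of the 27 were called higher and 6 lower. There, 50.0% of all genes were called. With all 6 arrays, the members' median change was 0.04, 0.06 and -0.08 in the order given above, beside -0.03, -0.05 and -0.02 over all genes.

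The size of the changes shows the same range. Over all 3 groups, 11 of the 27 genes differed by the moderated F test at an adjusted p under 0.05, where 45.5% of all genes did. These 11 are the same genes that were called in at least 1 comparison. Only MVK and ELOVL6 moved by more than 1 on the log2 scale, both against hESC, and the change of ELOVL6 was not called. In INM against hESC, 11 genes moved by less than 0.3, in SMC against hESC 13, and in SMC against INM 18. Arrays of INM and hESC did not overlap for 17 genes (63%), against 68.2% of all genes. For SMC and hESC this held for 20 genes (74.1%, against 75.3%), and for SMC and INM for 14 (51.9%, against 62%).

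**Figure D1:**
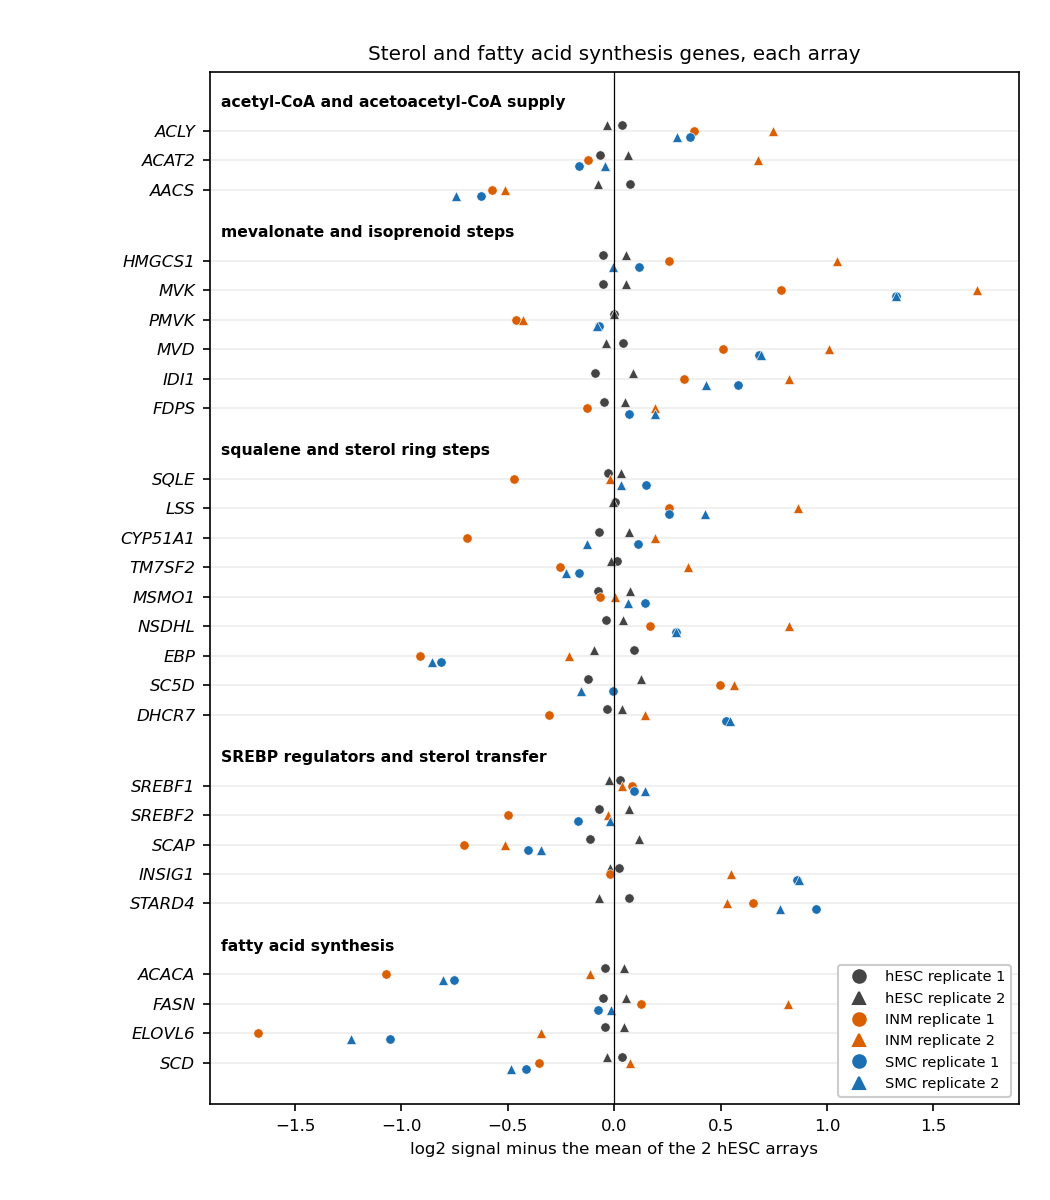
Log2 signal of each of the 27 genes on each of the 6 arrays, drawn as the difference from that gene's mean of the 2 hESC arrays and grouped by role in the pathway. INM replicate 2 lies above INM replicate 1 for 25 of the 27 genes, and MVK lies above hESC on all 4 other arrays.

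The promoters of the genes that moved are shown next, because sterol genes are known to share short control sequences there. SREBPs bind sterol regulatory elements and E-boxes (CACGTG), and at many sterol genes they act beside NF-Y, which binds CCAAT boxes. In windows of 300 bases around the start of transcription (250 before and 50 from the start on, RefSeq, GRCh38.p14), found for 25 of the 29 genes (24 of those measured, and HSD17B7), CCAAT was searched on both strands, so that ATTGG on the gene's own strand counts as a match. Each stretch below runs 5′ to 3′ on the gene's strand over 220 bases before the start, with matches to the CCAAT box on either strand, the E-box and the sterol element (TCACNCCAC) in capitals. The motifs and the genes shown were chosen after the expression values were known. The first 4 genes had the largest called rises in SMC against hESC: MVK (plus strand, chr12:109573574-109573793), MVD (minus strand, chr16:88663092-88663311), STARD4 (minus strand, chr5:111512536-111512755) and INSIG1 (plus strand, chr7:155297658-155297877).
MVK: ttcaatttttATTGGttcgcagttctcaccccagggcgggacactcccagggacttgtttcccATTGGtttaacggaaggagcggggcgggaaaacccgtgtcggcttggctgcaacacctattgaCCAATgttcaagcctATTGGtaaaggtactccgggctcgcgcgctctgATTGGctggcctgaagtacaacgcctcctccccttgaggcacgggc
MVD: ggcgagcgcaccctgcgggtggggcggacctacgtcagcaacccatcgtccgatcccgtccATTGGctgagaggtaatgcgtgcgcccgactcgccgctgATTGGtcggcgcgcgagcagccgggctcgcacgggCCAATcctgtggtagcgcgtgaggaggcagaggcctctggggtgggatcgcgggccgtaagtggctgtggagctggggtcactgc
STARD4: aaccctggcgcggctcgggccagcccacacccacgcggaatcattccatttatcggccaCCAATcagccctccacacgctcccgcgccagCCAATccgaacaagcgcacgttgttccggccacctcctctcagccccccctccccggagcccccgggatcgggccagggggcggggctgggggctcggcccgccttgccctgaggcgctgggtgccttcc
INSIG1: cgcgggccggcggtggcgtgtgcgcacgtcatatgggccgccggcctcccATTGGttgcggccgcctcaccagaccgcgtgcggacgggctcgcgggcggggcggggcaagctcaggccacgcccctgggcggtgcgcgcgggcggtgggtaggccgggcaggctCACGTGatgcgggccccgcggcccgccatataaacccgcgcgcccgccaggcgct

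Next to them stand PMVK (minus strand, chr1:154936720-154936939) and AACS (plus strand, chr12:125065215-125065434), which fell in INM and hold neither CCAAT nor CACGTG in the window, and SREBF2 (plus strand, chr22:41832885-41833104), which was not called and holds the 1 match among the members to that sterol element.
PMVK: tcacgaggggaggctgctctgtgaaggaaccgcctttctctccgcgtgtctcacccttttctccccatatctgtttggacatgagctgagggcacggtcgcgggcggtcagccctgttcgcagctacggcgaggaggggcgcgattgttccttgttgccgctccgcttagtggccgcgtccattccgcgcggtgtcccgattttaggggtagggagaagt
AACS: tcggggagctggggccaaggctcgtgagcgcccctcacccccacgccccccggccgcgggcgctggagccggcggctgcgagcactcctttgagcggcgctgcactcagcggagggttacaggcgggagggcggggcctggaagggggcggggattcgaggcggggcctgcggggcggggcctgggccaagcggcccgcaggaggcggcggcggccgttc
SREBF2: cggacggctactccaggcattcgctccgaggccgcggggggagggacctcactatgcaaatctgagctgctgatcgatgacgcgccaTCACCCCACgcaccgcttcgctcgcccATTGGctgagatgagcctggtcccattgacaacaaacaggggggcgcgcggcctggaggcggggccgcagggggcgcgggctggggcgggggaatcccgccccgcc

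At least 1 of a gene's windows held CCAAT for 19 of the 25 genes (76.0%), against 42.2% of the 14239 tested genes that have a window. Among the 7 genes called higher than hESC in INM or SMC, all 7 had it: 5 matches in MVK, 3 in MVD, 2 each in STARD4, ACLY and DHCR7, and 1 each in INSIG1 and SC5D. Of the 4 called lower, EBP had 3 matches and SCAP, PMVK and AACS had 0. Of the 13 called in neither comparison, 10 (76.9%) had at least 1. CACGTG was found in INSIG1, LSS, SC5D and SCAP (16% of the 25, against 10.9% of the tested genes), with its first base at -55 from the start in INSIG1. The sterol element TCACNCCAC was found in SREBF2 alone (4.0%, against 1.51%), with its first base at -133. The GC box GGGCGG was in 24 of the 25 (96.0%, against 65.9%). These matches describe the letters in the windows, with no test, and say nothing of binding in these cells.

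The first group of members makes the acetyl-CoA and acetoacetyl-CoA that both branches start from. ACLY, which splits citrate into cytosolic acetyl-CoA, read 11.15 and 11.08 in hESC, against 11.49 and 11.86 in INM and 11.47 and 11.41 in SMC. Both INM arrays and both SMC arrays lay above both hESC arrays. The rise to INM was 0.56 (SE 0.15, adjusted p = 0.0286), or 1.48-fold, and the difference of SMC from hESC, 0.32 (SE 0.15, adjusted p = 0.135), did not pass.

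AACS, which turns the ketone body acetoacetate into acetoacetyl-CoA, went the other way. It read 8.58 and 8.43 in hESC, then 7.93 and 7.99 in INM and 7.88 and 7.76 in SMC, so that every differentiated array lay below every hESC array. It fell by 0.55 in INM (SE 0.12, adjusted p = 0.0135) and by 0.69 in SMC (SE 0.12, adjusted p = 0.0046), a level 1.61-fold lower than in hESC. ACAT2, the cytosolic thiolase that joins acetyl-CoA units, ranged from 9.22 to 10.06 with overlapping groups and changed by 0.27 in INM and by -0.10 in SMC against hESC, neither called.

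The mevalonate steps held the largest called rise. MVK, mevalonate kinase, read 6.93 and 7.04 in hESC, against 7.77 and 8.69 in INM and 8.31 in both SMC arrays. The hESC arrays stood apart below the other 4, and the SMC values fell between the 2 INM values. Its mean rose from 6.98 ± 0.08 (SD, n = 2) in hESC to 8.23 ± 0.66 (SD, n = 2) in INM, a change of 1.25 (SE 0.28, adjusted p = 0.0156), or 2.38-fold. In SMC it was 1.33 above hESC (SE 0.28, adjusted p = 0.0105), or 2.51-fold.

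MVD, which decarboxylates mevalonate diphosphate to the first isoprene unit, was also lowest in hESC. Its arrays read 8.27 and 8.19 in hESC, then 8.74 and 9.24 in INM and 8.91 and 8.92 in SMC, with no overlap between hESC and the rest. The rise was 0.76 in INM (SE 0.18, adjusted p = 0.0178) and 0.68 in SMC (SE 0.18, adjusted p = 0.0228), or 1.69-fold and 1.61-fold.

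PMVK, phosphomevalonate kinase, acts between MVK and MVD and did not rise with them. It read 7.38 in both hESC arrays, against 6.92 and 6.95 in INM and 7.31 and 7.30 in SMC. Both INM arrays lay below all others, and the pairs were nearly equal within each group. It fell by 0.44 in INM (SE 0.10, adjusted p = 0.0194), and the difference of SMC from INM, 0.36 (SE 0.10, adjusted p = 0.0534), did not pass.

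The other mevalonate enzymes did not pass in any comparison. HMGCS1, cytosolic HMG-CoA synthase, read 9.90 and 10.01 in hESC, then 10.21 and 11 in INM and 10.07 and 9.95 in SMC, a change of 0.65 in INM (SE 0.25, adjusted p = 0.0867). IDI1, the isomerase of the isoprene units, read 9.67 and 9.85, then 10.09 and 10.58, then 10.34 and 10.19, a change of 0.57 in INM (SE 0.18, adjusted p = 0.053) and of 0.51 in SMC against hESC (adjusted p = 0.0727). FDPS, which makes farnesyl diphosphate, stayed between 8.69 and 9.01 on all arrays. FDPS also appears on 2 probe sets with several symbols, so its signal may include near-identical copies.

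Among the 9 measured enzymes that turn squalene into cholesterol, calls pointed in both directions. SC5D, which places a double bond in the sterol ring, read 11.02 and 11.27 in hESC, against 11.64 and 11.71 in INM and 11.14 and 10.99 in SMC. Both INM arrays lay above all others, and hESC and SMC overlapped. It rose by 0.53 in INM (SE 0.13, adjusted p = 0.024) and fell by 0.61 from INM to SMC (SE 0.13, adjusted p = 0.0222).

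DHCR7, which closes one route to cholesterol by reducing 7-dehydrocholesterol, had its highest level in SMC. It read 10.65 and 10.72 in hESC, then 10.38 and 10.83 in INM and 11.21 and 11.23 in SMC. The SMC arrays lay above the other 4, and the hESC values fell between the INM values. The rise was 0.61 over INM (SE 0.16, adjusted p = 0.0406) and 0.53 over hESC (SE 0.16, adjusted p = 0.0406), or 1.53-fold and 1.45-fold.

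EBP, the sterol isomerase, was the member with the largest called fall. Its arrays read 9.89 and 9.70 in hESC, against 8.88 and 9.58 in INM and 8.98 and 8.94 in SMC. Both SMC arrays lay below both hESC arrays, and the INM arrays lay on either side of the SMC values, also below hESC. It fell by 0.84 in SMC against hESC (SE 0.23, adjusted p = 0.0276), or 1.79-fold, and its difference of -0.57 in INM (SE 0.23, adjusted p = 0.101) did not pass.

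The remaining 6 ring enzymes were called in no comparison. SQLE (squalene epoxidase) read between 10.83 and 11.45, and MSMO1 (the C4 methyl sterol oxidase) between 11.52 and 11.74. LSS, lanosterol synthase, read 9.09 and 9.08 in hESC, then 9.34 and 9.95 in INM and 9.34 and 9.51 in SMC. All 4 differentiated arrays of LSS lay above both hESC arrays, with differences of 0.56 (adjusted p = 0.0757) and 0.34 (adjusted p = 0.24). NSDHL, which takes part in removing carbons attached to the ring, differed by 0.50 in INM (adjusted p = 0.112). CYP51A1, the lanosterol demethylase, read 9.98 and 10.86 on its INM arrays, on either side of its hESC values of 10.60 and 10.74, and its second probe set gave changes of -0.02, 0.20 and 0.18 for INM against hESC, SMC against INM and SMC against hESC. TM7SF2, a sterol reductase, ranged from 7.71 to 8.31.

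Of the SREBP system, the transcription factors themselves were called in no comparison, while partners of theirs were. SREBF1 read 8.02, 7.97, 8.08, 8.03, 8.09 and 8.14 over hESC, INM and SMC, and its differences of 0.06 and 0.12 from hESC were not called (adjusted p = 0.675 and 0.413). SREBF2 read 9.66 and 9.80, then 9.23 and 9.70, then 9.56 and 9.71, with overlapping groups. Its differences of -0.26 (adjusted p = 0.293) and -0.10 (adjusted p = 0.7) were not called either. SREBF1 and SREBF2 are activated by cleavage of the protein, which mRNA levels do not show.

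INSIG1, which holds SCAP and SREBP in the endoplasmic reticulum and is itself a well-known SREBP target, was highest in SMC. It read 8.71 and 8.67 in hESC, against 8.67 and 9.24 in INM and 9.55 and 9.56 in SMC, so that both SMC arrays lay above the other 4. It rose by 0.86 over hESC (SE 0.19, adjusted p = 0.0121), or 1.82-fold, and its 0.60 over INM (SE 0.19, adjusted p = 0.0673) did not pass. SCAP, the escort, read 9.17 and 9.40 in hESC, then 8.58 and 8.77 in INM and 8.88 and 8.94 in SMC. Every differentiated array lay below hESC: SCAP fell by 0.61 in INM (SE 0.13, adjusted p = 0.0152), and its difference of -0.38 in SMC (SE 0.13, adjusted p = 0.0697) did not pass.

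STARD4, a cytosolic carrier that moves sterol between membranes, had the smallest adjusted p of the members in SMC against hESC. It read 8.74 and 8.60 in hESC, against 9.32 and 9.20 in INM and 9.62 and 9.45 in SMC. The 3 groups did not overlap and stood in that order. The rise was 0.59 in INM (SE 0.12, adjusted p = 0.013) and 0.87 in SMC (SE 0.12, adjusted p = 0.00232), or 1.51-fold and 1.82-fold, and the step from INM to SMC, 0.28 (SE 0.12, adjusted p = 0.173), did not pass.

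**Figure D2:**
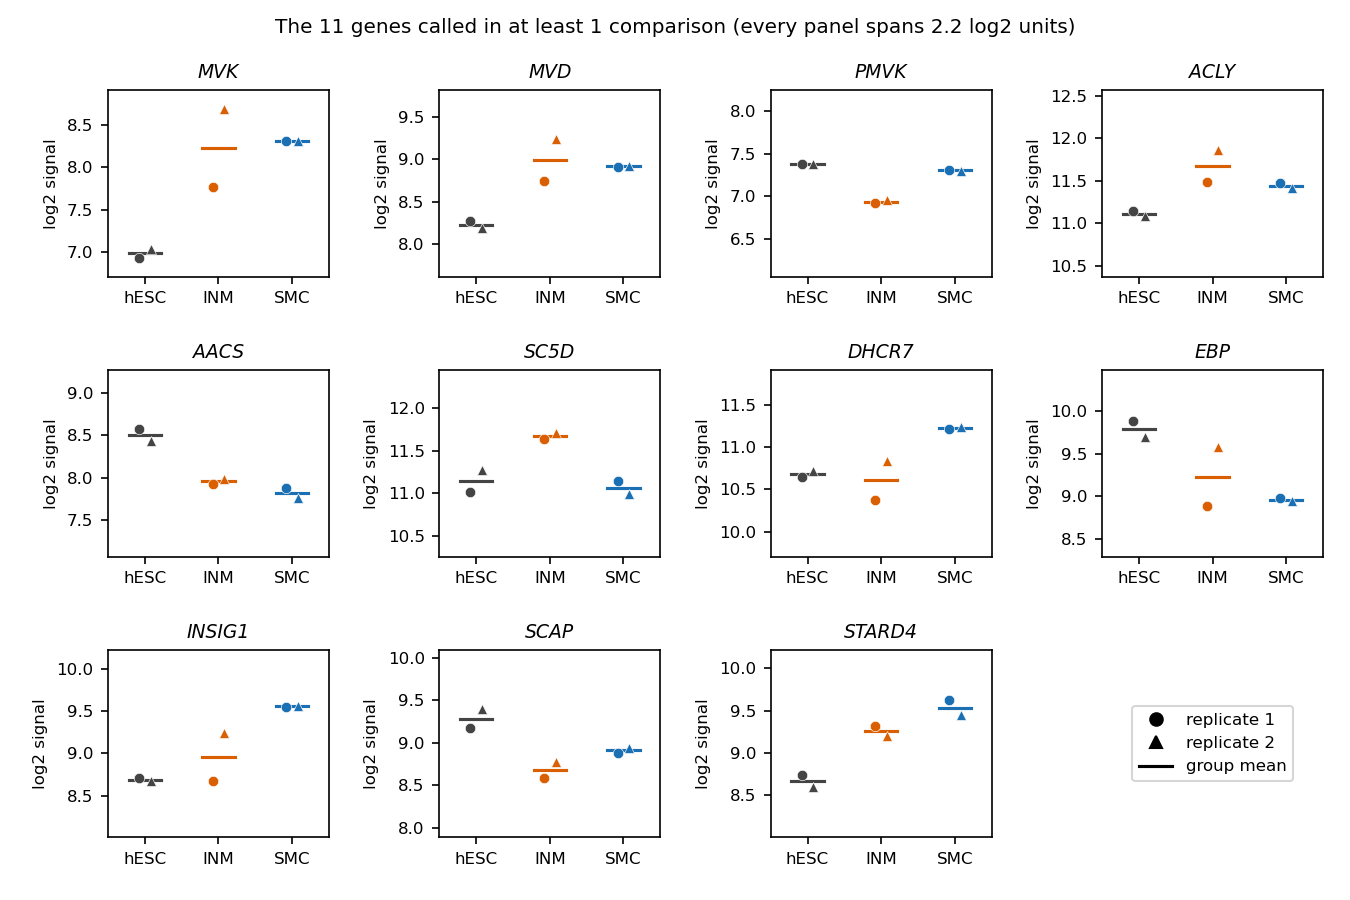
Log2 signal on each array of the 11 genes called in at least 1 comparison, by group, with bars at the group means of 2 arrays, and every panel on an axis of the same length. MVK, MVD and STARD4 lie above hESC in both INM and SMC, AACS lies below it in both, and DHCR7 and INSIG1 are highest in SMC.

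None of the 4 members that build, extend and desaturate fatty acids was called. ELOVL6, which elongates saturated chains, read 10.46 and 10.55 in hESC, then 8.83 and 10.16 in INM and 9.45 and 9.27 in SMC. All 4 differentiated arrays lay below hESC, with differences of -1.01 in INM (SE 0.38, adjusted p = 0.0879) and -1.14 in SMC (SE 0.38, adjusted p = 0.058). ACACA, acetyl-CoA carboxylase, read 9.43 and 9.52 in hESC, against 8.40 and 9.36 in INM and 8.72 and 8.67 in SMC. Its differences were -0.60 (SE 0.29, adjusted p = 0.156) and -0.78 (SE 0.29, adjusted p = 0.0755).

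FASN, fatty acid synthase, read 9.63 and 9.74 in hESC, then 9.81 and 10.50 in INM and 9.61 and 9.67 in SMC, a difference of 0.47 in INM (SE 0.22, adjusted p = 0.151). SCD, the stearoyl-CoA desaturase, read 12.35 and 12.28 in hESC, against 11.96 and 12.39 in INM and 11.90 and 11.83 in SMC, a difference of -0.45 in SMC against hESC (SE 0.16, adjusted p = 0.0697). In SMC against hESC all 4 differences were below 0, from -1.14 to -0.05, with a median of -0.61. The 6 mevalonate genes had a median of 0.32 in the same comparison, with 2 of 6 called (33.3%, against 37.2% of all genes), and the difference between these groups of genes was not tested.

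The groups' shared estimate of spread bears on ELOVL6, ACACA and SCD among these genes, since the INM arrays raise it. In a fit of SMC and hESC alone, 9 members were called higher (adding IDI1, LSS, ACLY and NSDHL) and 6 lower: ELOVL6 (adjusted p = 9.63e-05), EBP, ACACA, AACS, SCD (adjusted p = 0.00743) and SCAP. In that fit 50.0% of all genes were called, and FASN was called in neither direction. With 1 array of SMC or hESC left out, fewer members and fewer of all genes were called than with all 6 arrays. STARD4 (0.78 to 0.95) and AACS (-0.76 to -0.61) were the members called in SMC against hESC whichever of the 6 arrays was left out.

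The INM arrays differed for these genes in 1 direction. INM replicate 2 was above replicate 1 for 25 of the 27 members, the exceptions being SREBF1 and STARD4, with a median gap of 0.50 on the log2 scale. Over all genes the same held for 51.2%, with a median gap of 0.01. In hESC replicate 2 was the higher for 16 members (median gap 0.08), and in SMC for 12 (median gap -0.04). For 12 members the INM arrays were more than 0.5 apart while their hESC and SMC pairs were each within 0.25: HMGCS1, LSS, CYP51A1, NSDHL, EBP, MVK, ACAT2, INSIG1, FASN, ACACA, ELOVL6 and TM7SF2.

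The gap was widest in the enzyme groups. It was 0.83 at the median for the 4 fatty acid genes, 0.60 for the 9 ring enzymes, 0.50 for the 6 mevalonate genes, and 0.37 for the 3 supply genes, and every gene of these groups was higher in replicate 2. Of the 5 SREBP and transfer genes 3 were higher, and their median absolute gap of 0.19 equals that over all genes (0.19). ELOVL6 had the widest gap, 1.33. A list of 20 proliferation genes moved with it: all 20 were higher in INM replicate 2, by 0.96 at the median, and the list's median level was 8.86 and 9.87 on the INM arrays, against 9.68 and 9.67 in hESC and 8.69 and 8.71 in SMC. Mesoderm markers were higher in INM replicate 2 for 7 of 9 (median gap 0.54) and pluripotency markers for 7 of 9 (median gap 0.42). Other lists were split: smooth muscle markers were higher in replicate 2 for 4 of 9, trophoblast and amnion markers for 2 of 7, endothelial markers for 3 of 8 and adipocyte markers for 4 of 9. Single markers of these lists were far apart, with replicate 2 minus replicate 1 at -4.26 for LPL, -2.62 for CGA, -1.87 for ENG and -1.78 for KRT7, and at 2.55 for TEK and 2.38 for KDR. The part of proliferation or of cell composition in the members' gap was not tested.

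**Figure D3:**
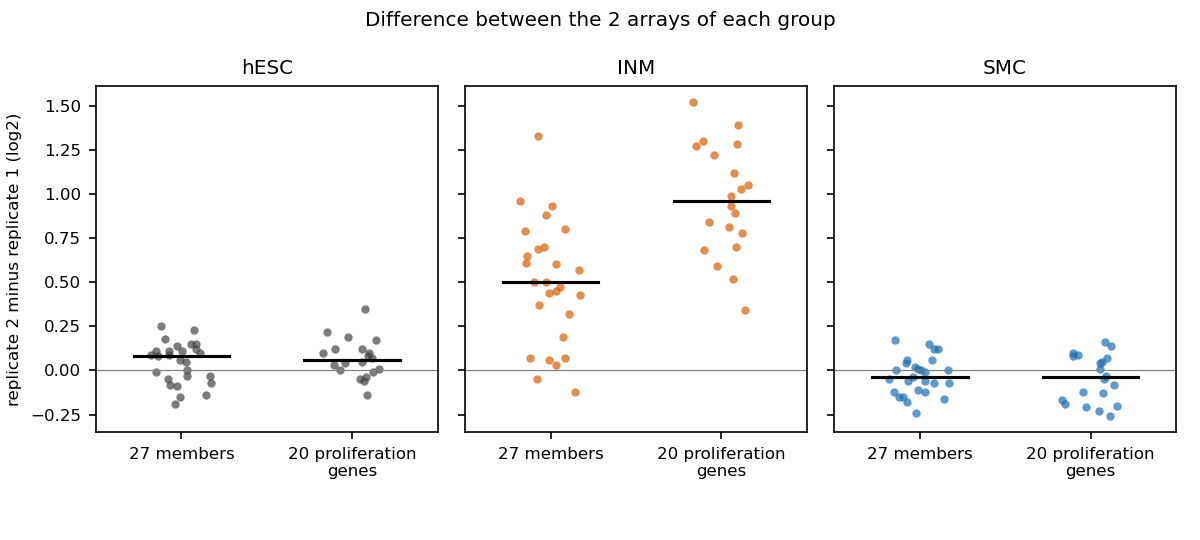
Difference between replicate 2 and replicate 1 on the log2 scale within hESC, INM and SMC, for each of the 27 genes and each of 20 proliferation genes (points), with the median as a bar. In INM 25 of the 27 points lie above 0, with a median of 0.50, and all 20 proliferation genes do, with a median of 0.96, while in hESC and SMC the points of both lists lie on either side of 0.

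The number of member calls that involve INM depended on which INM array was used. Calls over all genes moved with the array left out as well, in both comparisons with INM. Without either INM array, more of all genes were called than with all 6 arrays. Without any 1 array of hESC or SMC, fewer were. Without INM replicate 1, 12 members were called higher than hESC (among them HMGCS1, LSS, IDI1 and FASN) and 3 lower, and from INM to SMC 1 rose and 13 fell. Without INM replicate 2, 5 were called higher than hESC and 9 lower (among them ELOVL6, ACACA, EBP, CYP51A1, SREBF2 and SQLE), and from INM to SMC 6 rose and 1 fell. ELOVL6 differed between SMC and INM by -0.79 (adjusted p = 0.00348) in the first case and by 0.53 (adjusted p = 0.0237) in the second. MVK, MVD, STARD4, SC5D and ACLY were called higher and SCAP, AACS and PMVK lower in INM in both. Leaving out an hESC array instead left 0 called higher without replicate 1 and 1 without replicate 2, with 1 called lower in each, and leaving out either SMC array left 3 higher and 2 lower. From INM to SMC, DHCR7 was called without either INM array but was not called without any 1 array of hESC or SMC, and SC5D was not called without either SMC array.

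Scaling of the arrays moved calls and the balance of directions as well. Both scalings used all 33297 probe sets, named or not. Over the 18417 genes alone, the deposited medians were 7.1 on both hESC arrays, 7.17 and 7.19 in INM and 7.13 and 7.14 in SMC. Median centring set every array to the same median over all probe sets. The median change of the 18417 genes in INM against hESC then moved from -0.03 to 0.16 (0.13 with quantile normalization). For the tested genes, centring thus widened the gap between these groups. With centring, 9 members were called higher and 0 lower, and SCAP (-0.42, adjusted p = 0.058), AACS (-0.36, adjusted p = 0.0552) and PMVK (-0.25, adjusted p = 0.11) no longer passed. Of all genes called in that comparison, 56.1% were higher as deposited, 76.2% after median centring and 66.1% after quantile normalization. For SMC against hESC these shares were 52.9%, 66.5% and 58.3%, the median of all genes moved from -0.05 to 0.08 with centring, and EBP no longer passed (-0.71, adjusted p = 0.056). Relative to all genes, the members' median in INM against hESC was 0.07 as deposited and -0.13 with quantile normalization. Centring cannot change this value, since it shifts every gene of an array alike.

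Of 19 other genes of sterol synthesis and SREBP control, 14 were measured. In INM against hESC 5 rose and 0 fell (35.7% called, against 33.8% of all genes), with a median change of 0.24, and with median centring 7 rose and 0 fell. Among these, FAXDC2, a relative of the sterol oxidases, rose by 1.49 (SE 0.21, adjusted p = 0.00267), LPIN1, a phosphatidate phosphatase known to restrain SREBP, by 1.11, ACSS2, which makes acetyl-CoA from acetate, by 1.1, GGPS1, which makes geranylgeranyl diphosphate, by 1.02, and MBTPS1, the first protease that cleaves SREBP, by 0.69 (SE 0.11, adjusted p = 0.00398).

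In SMC against hESC 6 rose and 2 fell in this list (57.1%, against 37.2% of all genes), and the counts were 6 and 2 under both other scalings too. LPIN1 rose by 1.74 (SE 0.19, adjusted p = 0.000714), FAXDC2 by 1.47, ACSS2 by 1.4, MBTPS1 by 1.0 and GGPS1 by 0.57. LBR, a nuclear envelope protein with sterol reductase activity, fell by 1.1 (SE 0.24, adjusted p = 0.0121), and PAQR3 by 0.59. From INM to SMC, INSIG2, the second INSIG protein, rose by 0.73 (SE 0.18, adjusted p = 0.034), and LBR, PAQR3 and GGPS1 fell by 0.92, 0.76 and 0.45. MBTPS1 read 9.15 and 9.12 in hESC, then 9.81 and 9.85 in INM and 10.16 and 10.10 in SMC, with no overlap between any of the groups.

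Genes that take up, move, store or export sterol changed in both directions, with medians near 0. Of 25 measured, 7 rose and 5 fell from hESC to INM, 6 rose and 5 fell from hESC to SMC, and 2 rose and 0 fell from INM to SMC (48%, 44% and 8% called, against 33.8%, 37.2% and 21% of all genes). SOAT1, which makes cholesteryl esters for storage, read 5.67 and 6.11 in hESC, against 8.12 and 8.13 in INM and 8.37 and 8.25 in SMC. Both hESC arrays stood far below the rest, and the rise was 2.23 in INM (SE 0.16, adjusted p = 0.000255) and 2.42 in SMC (SE 0.16, adjusted p = 0.000118). MYLIP, which marks lipoprotein receptors for breakdown, rose by 1.33 and 1.09, and ABCA1, the cholesterol exporter, by 1.24 and 1.13, in the same order.

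Receptors of lipoproteins did not share a direction. LRP1 rose by 0.50 in INM and by 1.19 in SMC against hESC (SE 0.14, adjusted p = 0.0351 and 0.00103). SCARB1, the HDL receptor, fell by 0.99 and 0.60, and VLDLR fell by 1.35 in SMC (SE 0.24, adjusted p = 0.0056). LIPA, the lysosomal lipase that frees cholesterol from esters, fell by 0.94 in INM and rose by 0.92 from INM to SMC. CAV1, the caveolar coat protein, read 10.24 and 7.93 on the INM arrays, a gap opposite to that of the synthesis genes, and 10.94 and 10.95 in SMC, and it was called in no comparison.

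The other fatty acid genes included single changes of more than 2 on the log2 scale. Of 25 measured, 7 rose and 6 fell in INM and likewise in SMC against hESC (52% called in each, against 33.8% and 37.2% of all genes). From INM to SMC 6 rose and 4 fell (40%, against 21%). With median centring the counts were 9 and 4 in INM and 7 and 3 in SMC against hESC, where 36.3% and 37.3% of all genes were called. ELOVL2, an elongase of polyunsaturated chains, read 6.45 and 6.64 in hESC, then 6.86 and 7.90 in INM and 9.78 and 9.69 in SMC. Both SMC arrays stood far above the rest, and the rise over hESC was 3.19 (SE 0.31, adjusted p = 0.000486), or 9.14-fold. ME1, malic enzyme, which supplies NADPH for synthesis, read 7.85 and 7.98, then 8.78 and 9.35, then 10.30 and 10.28, rising by 2.37 from hESC to SMC (SE 0.19, adjusted p = 0.000236). ELOVL7, another elongase, went down in the same order, from 7.57 and 7.40 through 6.40 and 6.15 to 5.41 and 4.85, a fall of 2.36 (SE 0.20, adjusted p = 0.000294).

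SCD5, the second stearoyl-CoA desaturase, rose by 1.18 in INM and 1.59 in SMC, where SCD itself was not called. FADS1 and FADS2, the desaturases of polyunsaturated chains, were called in no comparison: FADS1 differed from hESC by 0.12 and 0.41 and FADS2 by 0.04 and 0.09. FADS3 fell by 1.0 in INM and by 0.49 in SMC. HACD3, a dehydratase of the elongation cycle, rose by 0.69 in INM and fell by 1.17 from INM to SMC.

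**Figure D4:**
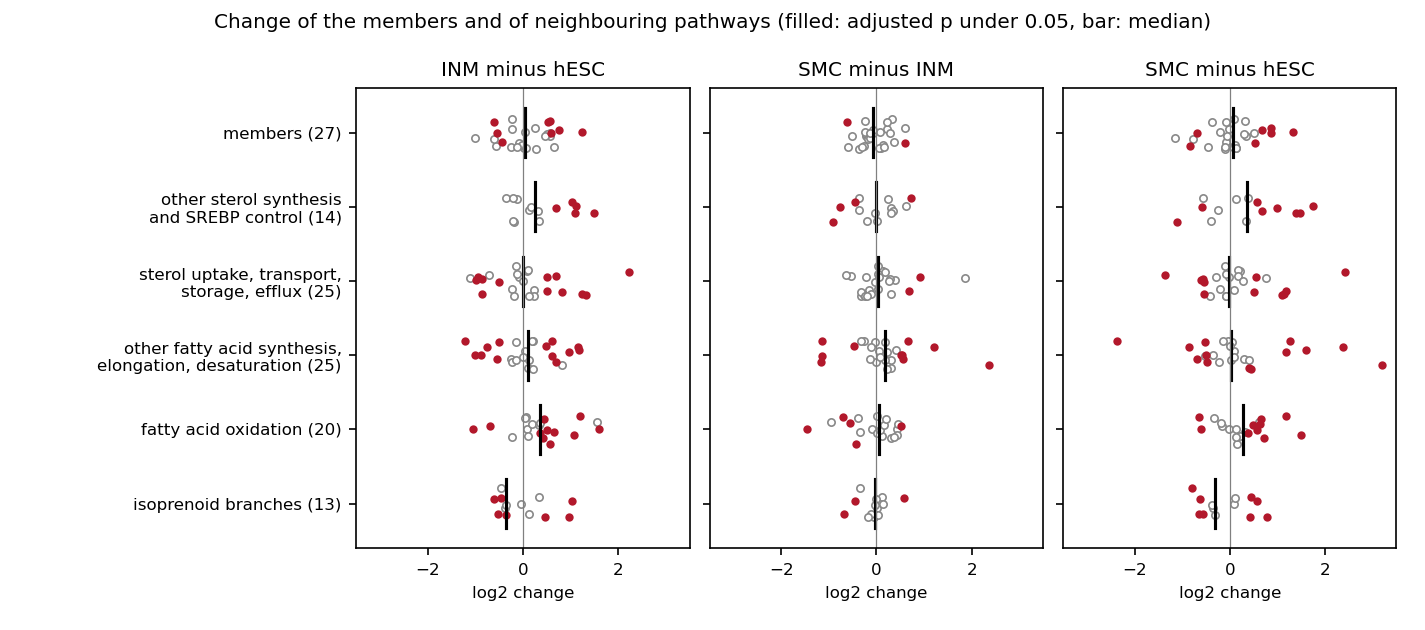
Log2 change of each gene in the 27 members and in 5 lists of neighbouring pathways for the 3 comparisons, filled where the adjusted p was under 0.05, with the median of each list as a bar. The members stay between -1.14 and 1.33, while ELOVL2 reaches 3.19 in the list of other fatty acid genes.

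Markers of other cell types with active lipid or steroid metabolism were read beside these values. Of 9 adipocyte markers, PPARG rose in INM by 3.33 (SE 0.22, adjusted p = 0.000186) while FABP4 and PLIN4 fell. In SMC against hESC PPARG (1.18, adjusted p = 0.00679) and FABP4 (0.47, adjusted p = 0.0139) were higher and PLIN4 lower, and from INM to SMC FABP4 rose by 1.03 and PPARG fell by 2.15. FABP4 read between 2.64 and 3.69 on all arrays, far below the low-signal limit of 5.89, so its changes are between very low signals. LPL read 10.24 and 5.98 on the INM arrays and was not called, ADIPOQ stayed between 5.07 and 5.48 and LEP between 5.08 and 5.49 on all arrays. The list's median level per array ran from 5.66 to 6.05. Of 8 markers of hepatocytes and endoderm, APOA2 rose in INM and none was called in SMC against hESC; ALB stayed between 4.06 and 4.39 on all arrays. The median level of that list ran from 6.02 to 6.44. Of 8 markers of steroid-producing cells, CYP11A1 rose in INM by 0.82. HSD3B2 rose by 0.76 (adjusted p = 0.0103) and FDX1 fell by 0.43 in SMC against hESC, and from INM to SMC HSD3B2 rose by 0.95 and STAR by 0.80, while HSD3B1, FDX1 and CYP11A1 fell. HSD3B2 read between 4.44 and 5.61 on all arrays, also below the low-signal limit. Of 7 trophoblast and amnion markers, 1 of them ISL1, 5 rose in INM and 3 in SMC against hESC. In SMC against hESC, 4 of 8 endothelial markers rose and 0 fell, 2 of 6 cardiomyocyte markers fell, and 1 of 7 neuroectoderm markers fell. All 9 mesoderm markers rose and all 9 pluripotency markers fell in that comparison. The part of such cells in the members' changes was not tested.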

How the data were processed

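Log2 expression values of 6 arrays (3 groups of 2) were used as deposited. Per the submitters' processing notes the authors used RMA, and limma is also named there; their versions and settings, and the genome build of the array, are not stated in the sources used here. Of 33297 probe sets, 19460 carry 1 symbol, 1754 several and 12083 none. Where several probe sets shared a gene (769 genes), the one with the highest mean was kept, leaving 18417 genes. Groups came from the sample titles. No measure of signal over background was used, folds are ratios of RMA signals, and the number of arrays limits the precision.

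In limma 3.58.1 (R 4.3.3; lmFit, eBayes) the 6 arrays were fitted with 1 mean per group and a spread shared by the groups, on 3 residual degrees of freedom with 3.56 from the prior. Tests were two-sided, with Benjamini-Hochberg adjustment over all genes and calls at 0.05. The 3 comparisons share groups. The fit was tested on simulated data.

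All measured members are named. From each other list, up to 4 called genes with the largest change per comparison were eligible to be named, all called genes where a direction had 5 or fewer, and FADS1, FADS2, INSIG2 and ABCA1; CAV1, MYH11, markers given for their gap between the INM arrays and adipocyte and hepatocyte markers given as levels were chosen after their values were seen. The members and lists were chosen with earlier results of these data known. Alternatives were a replicate block, the mean over probe sets, a low-signal filter (log2 5.89, the 25 percentile), median centring, quantile normalization, 2 groups at a time, a trended robust prior, array weights, all probe sets and leaving out each array; recomputing the other lists under both scalings was added after seeing the data. Promoter windows came from a RefSeq table of GRCh38.p14, matched by symbol; FDFT1, SQLE, ACAT2 and FASN had none.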

Additional observations from a re-analysis of the deposited data

How the results depend on the processing

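The 81 member changes (27 genes in 3 comparisons) were recomputed under 15 other settings, 6 of which leave out 1 array. No member called as reported changed direction under any of them, and 42 other values did. With median centring, 9 members were called higher and 0 lower in INM against hESC, where 36.3% of all genes were called. In SMC against INM 0 were higher and 1 lower (21.6% of all genes), and in SMC against hESC 6 and 1 (37.3%). With quantile normalization, 2 were higher and 1 lower in SMC against INM (21.3%), and 5 higher and 5 lower in SMC against hESC (37.8%). With 2 groups fitted at a time, 3 were higher and 2 lower in INM against hESC (24.4%). In SMC against INM that gave 0 and 1 (13.8%, 2541 genes), and in SMC against hESC 9 and 6 (50.0%). Array weights (0.46 for the INM arrays, 1.31 for hESC and 1.66 for SMC) gave 2 higher and 1 lower in SMC against INM (18.4%). In SMC against hESC they gave 7 higher and 6 lower (49.2%, beside 37.2% without weights). The low-signal filter gave 2 higher in SMC against INM, and testing all probe sets gave 0, with 10688 probe sets called in INM against hESC where 6217 genes were. Why the counts moved was not tested for any of these settings.

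With the replicate number as a block, 5 members rose and 3 fell in INM, and 1 rose and 1 fell from INM to SMC. In SMC against hESC 5 rose and 3 fell, where ELOVL6 was the added one (adjusted p = 0.0497 in limma's fit), and 8 members differed between the 3 groups. The shares of all genes called in these comparisons were 31.0%, 18.4% and 34.9%. The labels do not say whether arrays with the same replicate number belong together. The differences between replicates correlated across genes at 0.07, -0.12 and -0.07 for hESC with INM, hESC with SMC and INM with SMC. Such values cannot decide whether the samples were paired, since a small shared difference could be hidden by the larger INM gap.

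Leaving out 1 array at a time gave 0 to 12 members higher and 1 to 9 lower in INM against hESC, 0 to 6 and 0 to 13 in SMC against INM, and 1 to 9 and 1 to 6 in SMC against hESC, with 2 to 21 differing between the groups. Where this left 1 array in a group, that array was assumed to vary like the others. Over all genes the calls ran from 2939 to 7520, 1134 to 6143 and 3803 to 9200. Changes that crossed 0 ran, in INM against hESC, from -0.13 to 0.19 (FDPS), -0.68 to 0.20 (CYP51A1), -0.30 to 0.14 (DHCR7), -0.11 to 0.04 (MSMO1), -0.13 to 0.67 (ACAT2), -0.02 to 0.55 (INSIG1), -0.35 to 0.08 (SCD) and -0.26 to 0.34 (TM7SF2). In SMC against INM they ran from -0.32 to 0.18 (IDI1), -0.06 to 0.26 (FDPS), -0.53 to 0.08 (LSS), -0.21 to 0.67 (CYP51A1), -0.53 to 0.12 (NSDHL), -0.63 to 0.08 (EBP), -0.39 to 0.54 (MVK), -0.33 to 0.18 (MVD), -0.77 to 0.02 (ACAT2), -0.07 to 0.40 (SREBF2), -0.66 to 0.30 (ACACA), -0.79 to 0.53 (ELOVL6) and -0.54 to 0.06 (TM7SF2). In SMC against hESC they ran from -0.01 to 0.12 (HMGCS1), -0.13 to 0.11 (CYP51A1), -0.20 to 0.05 (SC5D) and -0.11 to 0.01 (FASN). Of the 42 values, 2 were called: MVK in SMC against INM without INM replicate 1 (-0.39, adjusted p = 0.0474 in limma's fit) and ELOVL6 without INM replicate 2.

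Small changes also turned with the scaling. With median centring, DHCR7 (0.11), MSMO1 (0.16) and SCD (0.06) turned in INM against hESC, and CYP51A1 (0.12), SC5D (0.06), PMVK (0.05), ACAT2 (0.03), SREBF2 (0.04) and FASN (0.08) in SMC against hESC. With quantile normalization FDPS (-0.05) and TM7SF2 (0) turned in INM against hESC, and CYP51A1 was 0.09 in SMC against hESC with the mean of its probe sets.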

Other observations

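Of 20 measured genes that burn fatty acids, 9 rose and 2 fell from hESC to INM (median 0.36), 8 rose and 2 fell from hESC to SMC (median 0.27), and 1 rose and 4 fell from INM to SMC. The shares called were 55%, 50% and 25%, against 33.8%, 37.2% and 21% of all genes, of which 18.9%, 19.7% and 9.94% were called higher. With median centring, where 76.2% of all calls in INM against hESC were higher (56.1% as deposited), 11 rose and 2 fell in INM and 9 rose and 1 fell in SMC against hESC. HADHB, a subunit of the mitochondrial trifunctional protein, read 8.18 and 8.30 in hESC and between 9.39 and 9.46 on the other 4 arrays, a rise of 1.19 in both INM and SMC (SE 0.11, adjusted p = 0.000644 and 0.000411 in limma's fit). SLC25A20, the carnitine carrier, rose by 1.07 and 1.5. ACADL, an acyl-CoA dehydrogenase, rose by 1.60 in INM and fell by 1.45 from INM to SMC. CPT1C fell by 1.04 in INM and 0.61 in SMC, CPT1A, the carnitine transferase of the outer mitochondrial membrane, fell by 0.69 in INM, and CPT2 fell by 0.65 in SMC against hESC. Whether this list differs from the synthesis genes was not tested.

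The branches that leave the pathway for dolichol, ubiquinone and prenylated proteins had 13 measured genes. In INM against hESC 3 rose (GGPS1 by 1.02, RABGGTA by 0.97 and DHDDS by 0.46) and 4 fell (RABGGTB by 0.61, PDSS1 by 0.53, ZMPSTE24 by 0.46 and RCE1 by 0.36), with a median of -0.36; with median centring 4 rose and 1 fell. In SMC against hESC 4 rose and 4 fell, with a median of -0.32, and with quantile normalization 3 rose and 6 fell. The shares called were 53.8% and 61.5%, against 33.8% and 37.2% of all genes. RABGGTA and RABGGTB, the 2 subunits of Rab geranylgeranyl transferase, were called in opposite directions in both comparisons. COQ2, an enzyme of ubiquinone synthesis, fell by 0.80 in SMC (SE 0.17, adjusted p = 0.0116).

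Of the 20 proliferation genes, 1 rose and 11 fell in SMC against hESC, with a median of -1.03 (60% called, against 37.2% of all genes). In INM 1 rose and 1 fell, with a median of -0.29 (10%, against 33.8%), while the INM arrays were 0.96 apart at the median for this list. The part of proliferation in the members' changes was not tested.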
